A study of Mus musculus with 6 samples.

Results

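Chemokine ligands are the small secreted proteins by which natural killer (NK) cells call other leukocytes to a site. The 6 genes described here, Ccl3, Ccl4, Ccl5, Xcl1, Ccl6 and Ccl9, were taken by symbol from a table of 55291 genes, and all 6 passed the filter on low counts that left 16480 genes for testing. They were chosen by symbol after their CPM and folds between S303/7A and WT in these same libraries were known, so these values are given as a description with no p-value, and calls made on them in the fit across all genes are counted only. Polyadenylated transcripts of splenic NK cells were measured by bulk RNA-seq in 3 S303/7A mice (replicates 5, 6 and 7), which carry alanine in place of serines 303 and 307 of HSF1, heat shock factor 1, and in 3 mice wild type (WT) for HSF1 (replicates 1, 2 and 3). HSF1 switches on chaperone genes when proteins misfold, and the series text calls the mutant mice HSF1-enhanced. All mice were at steady state, no agent was given, 1 mouse gave 1 library, and cells were enriched with DX5 beads and sorted as CD49b-positive and CD3e-negative. The labels name no transgene or Cre driver for the mutation, and they give no age, sex or strain background.

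CCL3, CCL4 and CCL5 are CC chemokines that draw T cells and myeloid cells, and CCL3 and CCL5 act in part through the receptor CCR1. NK cells hold the Ccl5 transcript at rest and release CCL3, CCL4 and XCL1 soon after activation. XCL1 draws the dendritic cells that carry XCR1, its only receptor. In the mouse, CCL6 and CCL9 are ligands of CCR1 made by macrophages, other myeloid cells and basophils, and basophils carry CD49b as NK cells do, so the gate used here does not remove them.

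Total counts ranged from 43189163 to 47248039 in S303/7A libraries and from 53845572 to 72736406 in WT libraries. NK identity genes were high in every library: the summed level of 12 of them, led by Gzma, the granzyme A gene, was 27368 ± 570 CPM (counts scaled to a common library total) in S303/7A and 27113 ± 2429 CPM in WT (SD, n = 3 each). In edgeR's quasi-likelihood test 1 of the 12 was called, Klrb1c, the NK1.1 antigen gene, which fell with a log2 fold of -0.54 ± 0.07 (SE). DESeq2 called 2 of the 12 and limma-voom 1. The Klrb1c call was kept without WT 1 and lost without any other single library. Klrk1, which encodes the activating receptor NKG2D, had a log2 fold of 0.57 ± 0.09, without overlap. It was not called in this fit, with an adjusted p of 0.0700 (edgeR). Without the low-count filter 2 of the 12 were called. Leaving out S303/7A 6 gave 1 call, of a gene other than Klrb1c. A gene is called where its adjusted p is under 0.05. Over all 16480 genes, 60 were called (0.364%), 22 higher (0.133%) and 38 lower (0.231%) in S303/7A, and the median log2 fold was 0.01. An unadjusted p under 0.05 was found for 9.68% of these genes, and calls were made for 2.17% of genes by DESeq2 and 0.231% by limma-voom.

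The 5 CC genes lie within 138.906 kb of chromosome 11 (83525778 to 83664683, GRCm38), in the order Ccl5, Ccl9, Ccl6, Ccl3 and Ccl4, and Xcl1 lies on chromosome 1 (164931644 to 164935527, minus strand). The windows of 250 bases before the RefSeq start sites of 4 of them (build GRCm38.p6) are shown because Ccl6 and Ccl9 differ most between the genotypes and move together, while Ccl3 and Xcl1 stand for the NK chemokines. Ccl6 (chr11:83593088-83593337) and Ccl9 (chr11:83578637-83578886) are on the minus strand, and capitals mark runs of at least 6 bases that both share in a local alignment.
Ccl6: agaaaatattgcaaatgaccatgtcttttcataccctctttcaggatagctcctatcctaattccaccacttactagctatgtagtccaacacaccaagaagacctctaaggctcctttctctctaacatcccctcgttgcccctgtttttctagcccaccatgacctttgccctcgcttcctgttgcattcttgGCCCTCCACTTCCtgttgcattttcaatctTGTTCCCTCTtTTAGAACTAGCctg
Ccl9: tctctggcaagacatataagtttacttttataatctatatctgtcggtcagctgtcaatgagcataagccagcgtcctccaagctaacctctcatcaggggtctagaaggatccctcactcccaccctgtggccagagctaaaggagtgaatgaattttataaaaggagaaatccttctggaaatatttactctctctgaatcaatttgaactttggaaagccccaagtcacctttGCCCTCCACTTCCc
Ccl3 (chr11:83649379-83649628) and Xcl1 (chr1:164935523-164935772) are also on the minus strand, and capitals mark matches to TGTGGT, the core of the RUNX motif, on either strand.
Ccl3: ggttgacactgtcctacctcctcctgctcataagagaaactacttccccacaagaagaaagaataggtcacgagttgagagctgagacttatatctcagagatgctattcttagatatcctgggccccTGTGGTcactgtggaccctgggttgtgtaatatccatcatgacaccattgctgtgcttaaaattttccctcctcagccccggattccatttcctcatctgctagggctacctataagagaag
Xcl1: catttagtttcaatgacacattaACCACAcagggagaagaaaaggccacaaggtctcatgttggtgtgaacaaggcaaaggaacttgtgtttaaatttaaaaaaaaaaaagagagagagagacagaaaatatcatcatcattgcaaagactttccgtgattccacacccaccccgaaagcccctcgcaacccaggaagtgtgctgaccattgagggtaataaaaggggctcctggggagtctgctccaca

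The Ccl6 and Ccl9 windows shared a stretch in which 59 of 67 aligned bases were identical. It began 59 bases before the Ccl6 start and 18 bases before the Ccl9 start and ran on past both starts, where it is not printed. The best alignments of the other 5 pairs of windows spanned 9 to 28 bases. The heat shock element pair was searched in 1 order only, GAANNTTC. That order was in none of the 4 windows, and 6.72% of 32536 such windows of mouse genes hold it on either strand. The opposite order, with TTC ahead of GAA, was not searched, and the Ccl9 window printed above holds it. Absence of the pair from these windows is therefore not shown. The Ccl9 window held 1 match each to AP-1 (TGANTCA, 53 bases before the start), to the NF-kB consensus (35 bases before) and to TATAAA (92 bases before, searched on the coding strand). AP-1 is in 6.73%, NF-kB in 3.92% and TATAAA in 7.55% of all windows. TGTGGT, present in 14.0% of windows, was 122 bases before the Ccl3 start and 227 bases before the Xcl1 start. AGATAA, the GATA motif, was in none of the 4 windows and in 9.97% of all windows. None of these matches overlapped another. A match is only a run of letters, and no match says nothing of whether a factor binds. Ccl4 and Ccl5 were not matched.

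Ccl5 was the most abundant of the 6 by a wide margin. On a scale per length (CPM per kb of annotated exon), Ccl5 was at 4325 ± 141 in S303/7A and 4265 ± 677 in WT (SD, n = 3 each), which placed it at rank 6 and rank 5 of 16081 genes. Ccl4 followed in both groups, at 281 ± 45.3 in S303/7A and 376 ± 81.9 in WT. In WT the next 3 were Ccl6 (256 ± 49.9), Ccl3 (236 ± 79.9) and Xcl1 (212 ± 35.0). The WT libraries of neighbours in the order from Ccl4 to Xcl1 overlapped, so that order is not set. In S303/7A the order was Xcl1 (209 ± 30.2), Ccl3 (157 ± 14.1) and Ccl6 (118 ± 9.34), with no overlap between neighbours, although the lowest Xcl1 library (178) stood only just above the highest Ccl3 library (174). Ccl9 was lowest in both groups, at 23.3 ± 1.29 in S303/7A and 52.1 ± 11.6 in WT. The means kept this order with the length of the shortest coding transcript in place of the exon length, but Ccl3 (149 to 174) and Ccl6 (138 to 160.2) then overlapped in S303/7A. The 6 genes together took 0.480% ± 0.017 of all counts in S303/7A and 0.530% ± 0.066 in WT, and Ccl5 made up 85.6% ± 0.473 of these in S303/7A and 77.8% ± 4.71 in WT.

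**Figure D1:**
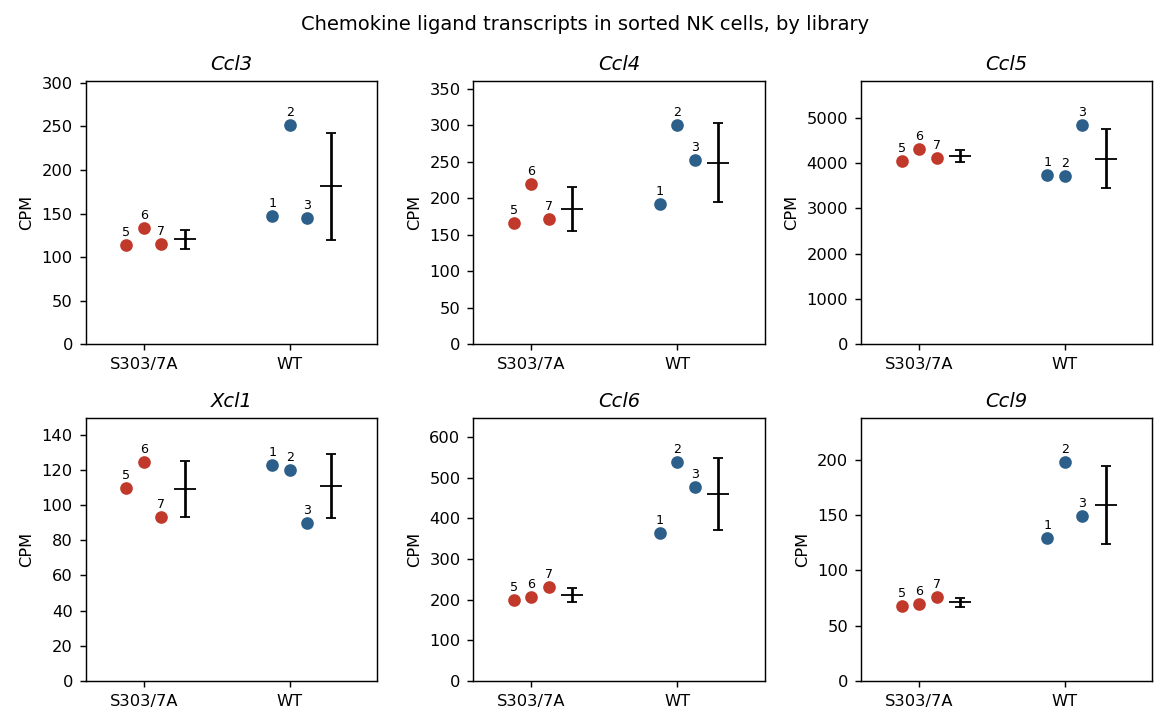
CPM of the 6 chemokine genes in each library, S303/7A (red) left of WT (blue), with the replicate number over each point and the mean ± SD (black, n = 3) beside it. Ccl6, Ccl9 and Ccl3 are lower in all 3 S303/7A libraries than in all 3 WT libraries, and Ccl4, Ccl5 and Xcl1 overlap.

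Ccl5, the chemokine that resting NK cells already transcribe, measured 4046, 4305 and 4104 CPM in S303/7A libraries 5, 6 and 7, against 3731, 3709 and 4845 CPM in WT libraries 1, 2 and 3. The S303/7A libraries lay inside the WT range, and the log2 fold (S303/7A over WT) came to 0.02 ± 0.11 (SE). The spread was wider in WT (coefficient of variation 15.9%) than in S303/7A (3.27%), through WT 3.

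Xcl1, the ligand of XCR1, measured 109.7, 125 and 93.1 CPM in S303/7A libraries 5, 6 and 7, against 123, 119.9 and 89.7 CPM in WT libraries 1, 2 and 3. Each group held libraries near both ends of the range, and the log2 fold was -0.02 ± 0.15. The gene shares 98 exon bases with Gm20743 on the other strand, which had 1473 counts over all libraries. No source used here gives the strand setting of the counting, so reads of the pair cannot be told apart.

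Ccl3 measured 114, 133 and 115 CPM in S303/7A libraries 5, 6 and 7, against 147, 252 and 145 CPM in WT libraries 1, 2 and 3. Every S303/7A library was below every WT library, and the log2 fold was -0.59 ± 0.22. WT 2 stood far above WT 1 and WT 3, and without it the log2 fold was -0.29. Among all genes tested, 8.37% were lower without overlap and 7.64% higher without overlap.

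Ccl4, the neighbour of Ccl3 on the opposite strand, measured 166, 220 and 171 CPM in S303/7A libraries 5, 6 and 7, against 192, 300.4 and 252 CPM in WT libraries 1, 2 and 3. The groups overlapped, since S303/7A 6 was above WT 1, and the log2 fold was -0.42 ± 0.18. Without WT 2 it was -0.27. Ccl3 and Ccl4 kept a similar ratio to each other: Ccl4 was 1.53 ± 0.11 times Ccl3 in S303/7A and 1.42 ± 0.29 times in WT, on the CPM scale. In both genes the highest library of each group was the same, S303/7A 6 and WT 2.

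Ccl6 measured 199, 206 and 231 CPM in S303/7A libraries 5, 6 and 7, against 363, 540 and 477 CPM in WT libraries 1, 2 and 3. All S303/7A libraries were well below all WT libraries, the mean was 46.1% of the WT mean, and the log2 fold was -1.12 ± 0.14. An antisense gene, E230016K23Rik, runs through Ccl6 without shared exon bases and had 374 counts over all libraries.

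Ccl9 measured 68.1, 69.6 and 75.5 CPM in S303/7A libraries 5, 6 and 7, against 129, 198 and 149 CPM in WT libraries 1, 2 and 3. The groups did not overlap here either, the mean was 44.8% of the WT mean, and the log2 fold was -1.16 ± 0.16. Ccl6 and Ccl9 held a nearly constant ratio in all 6 libraries, with Ccl6 at 2.92, 2.96 and 3.06 times Ccl9 in S303/7A 5, 6 and 7 and at 2.80, 2.72 and 3.21 times in WT 1, 2 and 3. Their closest transcripts match over 345 bases at 73.6% identity. Of the Ccl9 transcript, 171 bases match Baz1b at 94.7% identity, so a part of its reads may be shared.

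Ccl6 and Ccl9 were the members called in edgeR's quasi-likelihood test, both lower, 2 of 6 beside 0.231% of all genes. Because the members were picked with this contrast known, nothing is read from that count. Both were also called by DESeq2, without the low-count filter, with library totals, with DESeq2 size factors and after thinning all libraries to the smallest library total, and neither by limma-voom. Both calls were kept without WT 1 and lost without WT 2, WT 3 or any 1 of the 3 S303/7A libraries. Their folds moved less: over all 13 fits the log2 fold ran from -1.27 to -0.997 for Ccl6 and from -1.29 to -0.98 for Ccl9, while Ccl5 ran from -0.06 to 0.16 and Xcl1 from -0.15 to 0.08.

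**Figure D2:**
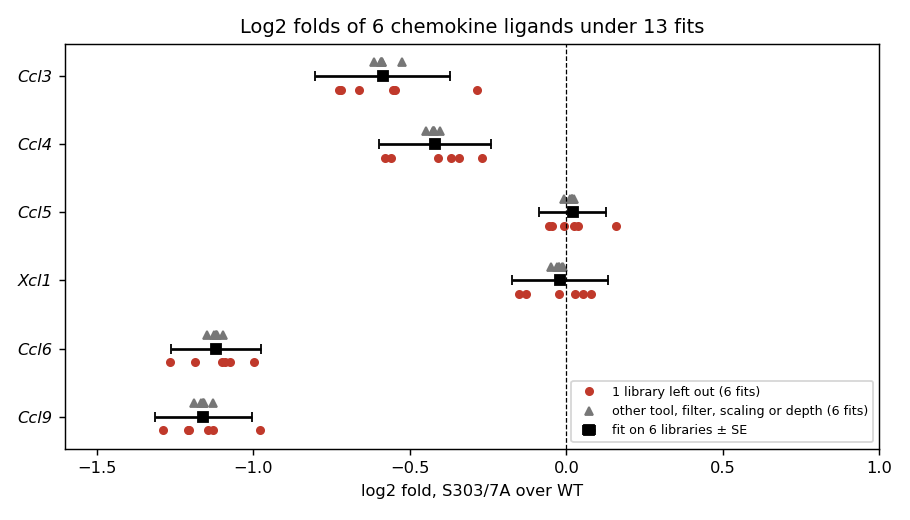
Log2 fold of S303/7A over WT for each gene from the fit on 6 libraries (black, ± SE), from 6 fits that each leave out 1 library (red) and from 6 fits with another tool, filter, scaling or depth (grey). Ccl6 and Ccl9 stay near -1 or below, Ccl3 and Ccl4 lie between these and 0, and Ccl5 and Xcl1 lie on both sides of 0.

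Along chromosome 11 the 5 genes did not differ as 1 block. Ccl5 (83525778 to 83530518, minus strand), with a log2 fold of 0.02, is followed by Ccl9 (83572919 to 83578636, minus strand) and Ccl6 (83587882 to 83593087, minus strand), both under -1, and then by Ccl3 (83647844 to 83649355, minus strand) and Ccl4 (83662584 to 83664683, plus strand), at -0.59 and -0.42. The remaining tested gene in the stretch is E230016K23Rik, at 0.607 CPM in S303/7A and 1.56 CPM in WT on average, with a log2 fold of -1.36 ± 0.45.

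**Figure D3:**
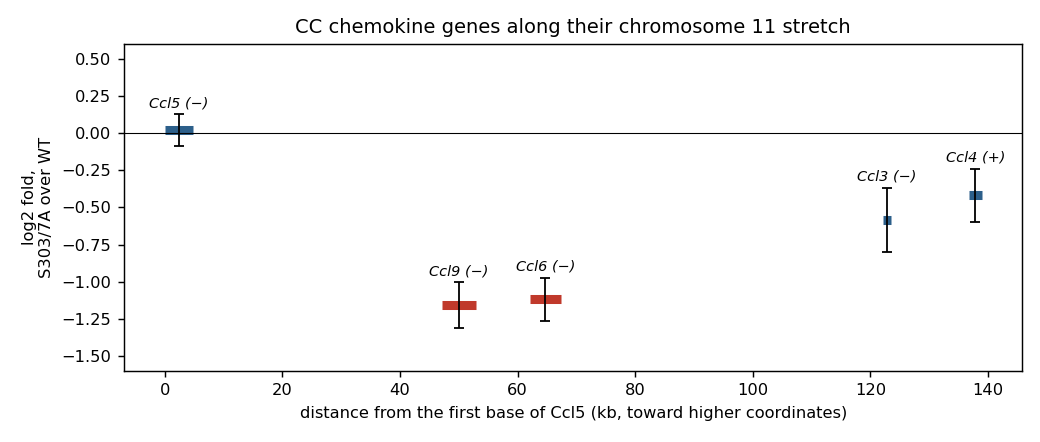
Log2 fold of S303/7A over WT (y axis, ± SE) for the 5 CC chemokine genes at their distance in kb from the first base of Ccl5 (x axis, to scale). Bars span the gene bodies, with Ccl6 and Ccl9 in red. Ccl9 and Ccl6, in the middle of the stretch, are lowest, and Ccl5 at its left end is near 0.

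For each gene, likeness of pattern was measured as the root-mean-square (RMS) difference of mean-centred log2 CPM over the 6 libraries, against 9388 other genes. Each of Ccl6 and Ccl9 had the other at rank 2, with a difference of 0.08, and Metap1d, a methionine aminopeptidase of mitochondria, at rank 1 (0.06 from Ccl6 and 0.07 from Ccl9). At rank 3 stood Cd63, a tetraspanin of granule membranes that marks basophil degranulation, for Ccl6 (0.10) and Cd200r3, a basophil receptor, for Ccl9 (0.11). Cd200r3 was at 34.7 ± 5.04 CPM in S303/7A and 70.6 ± 14.98 CPM in WT (SD, n = 3 each). Ccl4 was at rank 18 from Ccl3 and Ccl3 at rank 81 from Ccl4 (0.19). Among the nearest genes were Sfxn4 (0.10), Cnr2 and Trac for Ccl3, Stk19 (0.05) and Jazf1 for Ccl4, Ndufaf8 (0.03), Wdyhv1 and Pogk for Ccl5, and Mbd5 (0.04), Mturn and Slc25a4 for Xcl1. Ccl5 and Xcl1 were far from Ccl6, at rank 4459 and rank 5482. Ccl3 and Ccl4 ranked nearer, at rank 166 and rank 239 from Ccl6 and at rank 127 and rank 245 from Ccl9. Their differences from Ccl6 were 0.35 and 0.38. The reverse ranks were far lower in the order. Ccl6 and Ccl9 were at rank 1610 and rank 1087 from Ccl3, and at rank 6265 and rank 6700 from Ccl4.

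Basophil genes were lower in the same libraries as Ccl6 and Ccl9. Of 13 listed basophil markers, all tested and none at 0 counts, 12 had a log2 fold below 0, against 48.3% of all genes, with a median of -1.02. In edgeR's quasi-likelihood test 1 of the 13 fell and 0 rose, 10 had an unadjusted p under 0.05, DESeq2 called 8 and limma-voom 0. Their summed level ranged from 349 to 498 CPM in S303/7A and from 617 to 1147 CPM in WT. Ms4a2, a chain of the IgE receptor, measured 37.8, 32.7 and 36.6 CPM in S303/7A libraries 5, 6 and 7, against 57.1, 72.3 and 65.2 CPM in WT libraries 1, 2 and 3, and fell with a log2 fold of -0.86 ± 0.12 and an adjusted p of 0.0470 (edgeR). That call was lost without any 1 of the 6 libraries and with limma-voom, and the adjusted p ran from 3.33e-07 with DESeq2 to 0.202 over the alternatives. Hdc, the histamine-forming enzyme, was the most abundant of the list, at 61.2 ± 2.20 CPM in S303/7A and 137 ± 48.4 CPM in WT. Mcpt8, a basophil protease, measured 22.0, 26.9 and 36.7 CPM in S303/7A libraries 5, 6 and 7, against 27.3, 102 and 56.4 CPM in WT libraries 1, 2 and 3, with overlap. Fcer1a (31.0 ± 9.93 CPM in S303/7A and 40.5 ± 2.30 CPM in WT) and Cpa3 (24.1 ± 6.65 CPM in S303/7A and 46.8 ± 10.9 CPM in WT) were lower on average and not called. Il3ra alone of the list had a fold above 0 (0.43 ± 0.19).

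Ccl6 and Ccl9 were then set against these markers within each library. Ccl6 over the summed basophil markers was 0.470, 0.591 and 0.464 in S303/7A 5, 6 and 7 and 0.589, 0.471 and 0.606 in WT 1, 2 and 3, so the groups overlapped. For Ccl9 the same ratio was 0.171 ± 0.025 in S303/7A and 0.191 ± 0.019 in WT. Against Ms4a2 alone a gap remained, since Ccl6 was 5.26 to 6.31 times Ms4a2 in S303/7A and 6.36 to 7.46 times in WT. Ccl9 was 1.80 to 2.13 times Ms4a2 in S303/7A and 2.27 to 2.74 times in WT, again without overlap. Ccl6 over Fcer1a was 7.41 ± 2.71 in S303/7A and 11.3 ± 1.70 in WT, with overlap, and against Mcpt8 or Cpa3 alone the groups overlapped too. In bulk RNA, fewer cells of a type and less RNA per cell cannot be told apart. The part of basophil content in the Ccl6 and Ccl9 values was not tested.

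**Figure D4:**
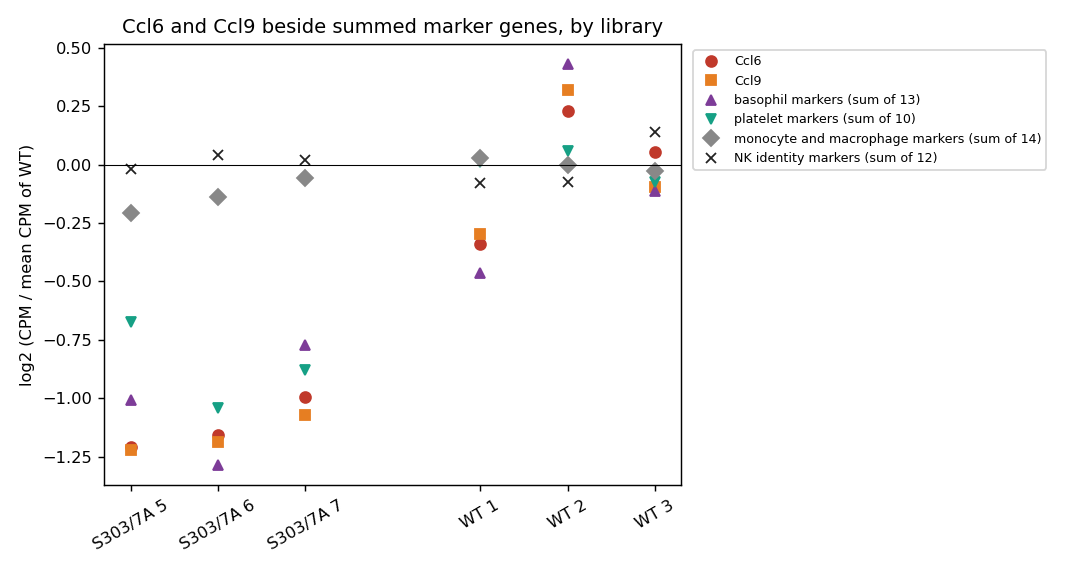
Ccl6, Ccl9 and summed marker levels in each library as log2 of CPM over the WT mean (y axis), S303/7A libraries left of WT libraries (x axis). Ccl6, Ccl9 and the basophil, platelet and monocyte and macrophage sums are lower in all 3 S303/7A libraries than in all 3 WT libraries, the last by a small margin. Within WT, Ccl6, Ccl9 and the basophil sum are lowest in WT 1 and highest in WT 2, while the NK identity sum stays near 0.

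Other myeloid markers were sparser. Of 16 monocyte and macrophage markers 14 were tested, with 0 called by edgeR, DESeq2 or limma-voom, 1 with an unadjusted p under 0.05, and a median log2 fold of -0.30. Their summed level was 813 to 904 CPM in S303/7A and 922 to 958 CPM in WT, most of it from Ccr2 (631 ± 3.15 CPM in S303/7A and 676 ± 55.3 CPM in WT), which NK cells also carry. Lyz2, the lysozyme of myeloid cells, was at 17.2 ± 4.46 CPM in S303/7A and 22.8 ± 1.02 CPM in WT. Of 12 neutrophil markers 7 were tested, with 0 called by edgeR or limma-voom, 2 with an unadjusted p under 0.05 and 1 called by DESeq2, Cxcr2. Of the 7, 5 had a log2 fold below 0. The median was -0.84, which is the fold of Cxcr2, and it was -0.32 without WT 2. S100a8, one of the others, had 81 counts over the S303/7A libraries and 64 over the WT libraries. The neutrophil sum was 36.7 to 42.0 CPM in S303/7A and 57.3 to 98.4 CPM in WT. Most of it came from Cxcr2, at 25.9 ± 4.39 CPM in S303/7A and 46.2 ± 5.26 CPM in WT. Of 10 mast cell and eosinophil markers 4 were tested and 0 called by edgeR or limma-voom, 1 had an unadjusted p under 0.05 and DESeq2 called 2. The median log2 fold was -0.61, and 0.006 after thinning to the smallest library total. Of the 4, 2 had a log2 fold below 0. The most abundant, Cma1 and Kit, had log2 folds of 0.0004 ± 0.22 and 0.10 ± 0.38. Siglecf, the eosinophil lectin, was at 3.25 ± 0.50 CPM in S303/7A and 7.58 ± 1.46 CPM in WT, without overlap. The sum of the 4 tested markers was 401 to 536 CPM in S303/7A and 419 to 490 CPM in WT, nearly all of it from Cma1 and Kit. Tpsab1 had no count in any library. Epx had 0 counts in S303/7A and 0, 8 and 75 in WT libraries 1, 2 and 3. Prg2 had 1 count in S303/7A and 71, 8 and 103 in WT libraries 1, 2 and 3. The part of these cells in the Ccl6 and Ccl9 values was not tested.

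Lymphoid and dendritic markers were checked too. Of 9 dendritic cell markers 7 were tested, with 0 called by edgeR or limma-voom, 1 called by DESeq2 and 1 with an unadjusted p under 0.05. The most abundant, Itgax, the CD11c integrin that NK cells also carry, was at 335 ± 112 CPM in S303/7A and 611 ± 101 CPM in WT, and the median log2 fold of the list was 0.21. Of 11 T cell markers, all tested, 0 were called by edgeR or limma-voom, 1 by DESeq2, and 4 had an unadjusted p under 0.05, with a median of 0.19 and Trbc1, a T cell receptor constant region, highest at 251 ± 9.61 CPM in S303/7A and 311 ± 50.9 CPM in WT. Of 7 B cell markers, all tested, 0 were called by edgeR, DESeq2 or limma-voom and 0 had an unadjusted p under 0.05, with a median of 0.12 and Ighm, the IgM heavy chain, highest at 510.1 ± 62.1 CPM in S303/7A and 470.3 ± 139.6 CPM in WT. These 3 medians turned negative without WT 3 (-0.13 for dendritic, -0.05 for T and -0.34 for B cell markers), and without WT 2 they were 0.62, 0.52 and 1.06 in the same order. Without S303/7A 7 the dendritic and B cell medians were -0.12 and -0.21, and without WT 1 the B cell median was -0.09.

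Platelets carry CD49b as well and store Ccl5, Pf4 and Ppbp products. All 10 platelet markers listed were tested and had a log2 fold below 0, with a median of -0.91. In edgeR's quasi-likelihood test 1 fell, Vwf, which encodes von Willebrand factor, and 0 rose, and the Vwf call was lost without any 1 of the 6 libraries. Their summed level was 174 to 225 CPM in S303/7A and 341 to 374 CPM in WT. DESeq2 called 7 and limma-voom 1. Itga2b, the integrin chain of the platelet fibrinogen receptor, was the most abundant, at 55.4 ± 12.3 CPM in S303/7A and 115 ± 11.9 CPM in WT. The log2 fold of Ccl5 was 0.02 beside these.

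Receptors of these ligands were compared in the same fit. Ccr1, Ccr3 and Xcr1 were tested, and Ackr2, a scavenger with 9 counts in S303/7A and 30 in WT, was too low. None of the 3 was called by edgeR or limma-voom, 2 had an unadjusted p under 0.05, and DESeq2 called those 2, Ccr1 and Ccr3, lower. Ccr1, the receptor of CCL6 and CCL9, measured 8.56, 8.28 and 12.3 CPM in S303/7A libraries 5, 6 and 7, against 21.5, 24.7 and 19.6 CPM in WT libraries 1, 2 and 3. Its groups did not overlap, with a log2 fold of -1.18 ± 0.20 and an adjusted p of 0.0895 (edgeR). Ccr3, a receptor of basophils and eosinophils, measured 5.88, 5.22 and 5.46 CPM in S303/7A libraries 5, 6 and 7, against 9.77, 18.0 and 12.5 CPM in WT libraries 1, 2 and 3, with a log2 fold of -1.28 ± 0.25 and an adjusted p of 0.120 (edgeR). Xcr1, the XCL1 receptor of dendritic cells, was at 1.02 ± 0.59 CPM in S303/7A and 0.450 ± 0.268 CPM in WT. Basophil markers moved with Ccr1 and Ccr3 as given above, and their part in these values was not tested.

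Of 18 other chemokine receptors 15 were tested, with 0 called by edgeR or limma-voom, 1 with an unadjusted p under 0.05, and 1 called by DESeq2, Cxcr2. Their median log2 fold was 0.09. Ccr2 was the most abundant, at a log2 fold of -0.10 ± 0.07.

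Few other chemokine ligands were expressed. Of 35 listed genes 34 were in the table, 15 had no count in any library, and 9 were tested, 0 called by edgeR or limma-voom, 3 with an unadjusted p under 0.05, and 1, Pf4, called lower by DESeq2. Their median log2 fold was 0.07, and 0.65 with limma-voom. Where 1 library was left out, it ran from -0.05 without WT 1 or S303/7A 5 to 0.34 without WT 2 or WT 3. Ppbp, a platelet CXC chemokine precursor, was the most abundant of them, with 45.9, 29.9 and 34.9 CPM in S303/7A libraries 5, 6 and 7, against 53.1, 46.8 and 47.1 CPM in WT libraries 1, 2 and 3. Its log2 fold was -0.41 ± 0.17. Pf4, platelet factor 4, measured 13.2, 9.35 and 14.2 CPM in S303/7A libraries 5, 6 and 7, against 25.1, 25.9 and 25.7 CPM in WT libraries 1, 2 and 3. Neither overlapped between the groups, and the log2 fold of Pf4 was -1.06 ± 0.18 with an adjusted p of 0.0881 (edgeR). The platelet markers moved with both, and their part in these values was not tested. Ccl25, best known from thymus and gut, was at 9.03 ± 1.503 CPM in S303/7A and 8.59 ± 1.43 CPM in WT.

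**Figure D5:**
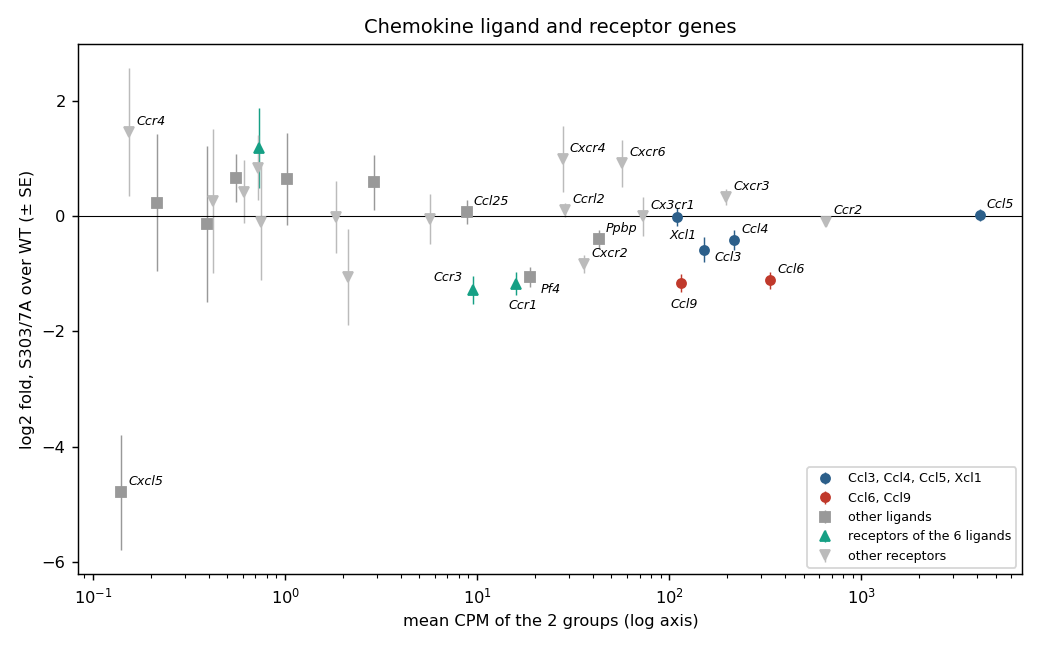
Log2 fold of S303/7A over WT (y axis, ± SE) against the mean CPM of both groups (x axis, log scale) for chemokine ligand and receptor genes that were tested. Ccl6, Ccl9, Ccr1, Ccr3 and Pf4 lie near -1, and Ccl5 and Xcl1 near 0. Ccr9 (-1.06) and Cxcr2 (-0.84) are also low, and Cxcr6 (0.91), Cxcr4 (0.99), Xcr1 (1.18) and Ccr4 (1.46) lie above 0. Cxcl5, far below the others, had 1 count in S303/7A and 52 in WT.

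Ccl3 and Ccl4 belong to the transcripts that activated NK cells make fast, so immediate early genes and NK cytokines are set beside them. Of 22 immediate early genes, all tested, 16 had a log2 fold below 0, the median was -0.26, 0 were called by edgeR, DESeq2 or limma-voom, and 5 had an unadjusted p under 0.05. Fos measured 5.32, 5.47 and 4.95 CPM in S303/7A libraries 5, 6 and 7, against 8.16, 29.4 and 6.95 CPM in WT libraries 1, 2 and 3, and Jun had 18.3, 34.2 and 17.7 CPM in the S303/7A libraries and 46.8, 189 and 38.1 CPM in the WT libraries. WT 2 was highest for Fos, Jun, Ccl3 and Ccl4, and S303/7A 6 was the highest S303/7A library for all 4. Egr1 was at 40.1 ± 4.01 CPM in S303/7A and 47.8 ± 8.64 CPM in WT, and Btg2, the most abundant of the list, at 706 ± 40.4 CPM in S303/7A and 683 ± 44.4 CPM in WT. The peak in WT 2 did not hold for the whole list. Egr1 had 55.4, 49.7 and 38.4 CPM in WT libraries 1, 2 and 3, and Btg2 had 643, 674 and 731 CPM. The part of immediate early gene activity in the Ccl3 and Ccl4 values was not tested.

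Of 10 listed NK cytokines 8 were tested, with 0 called by edgeR, DESeq2 or limma-voom and 0 with an unadjusted p under 0.05, and a median log2 fold of -0.02, which was above 0 without S303/7A 6 (0.06) or WT 3 (0.05). Ifng, the interferon that NK cells release with CCL3, CCL4, CCL5 and XCL1, measured 34.4, 44.1 and 33.2 CPM in S303/7A libraries 5, 6 and 7, against 44.5, 44.6 and 46.6 CPM in WT libraries 1, 2 and 3, with a log2 fold of -0.28 ± 0.13. Its groups were separated only narrowly, by S303/7A 6 just under WT 1. Ltb, lymphotoxin beta, was the most abundant, at 293 ± 80.4 CPM in S303/7A and 223 ± 86.6 CPM in WT.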

How the data were processed

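Transcripts of sorted splenic NK cells were sequenced from 3 S303/7A and 3 WT mice, with SMART-seq HT libraries per the labels' protocols. The authors deposited raw counts per gene. Trimmomatic, STAR, featureCounts, DESeq2 and the build GRCm38 (mm10) were used, per the submitters' processing notes, and their versions, annotation and strand setting were not found in the labels. The deposited normalized table was not used. Of 55291 rows, 21224 had no count.

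The analysis used edgeR 4.0.16 in R 4.3.3: filterByExpr (minimum count 10, minimum total 15), TMM scaling, the quasi-likelihood test of S303/7A against WT, and Benjamini-Hochberg adjustment over 16480 genes at 0.05. SE is the log2 fold over the square root of the test statistic. CPM are TMM-scaled and unlogged, with SD over 3 libraries, and p-values rest on the spread between 3 mice a group. Alternatives were DESeq2 1.42.0, limma-voom 3.58.1, no low-count filter, library totals, DESeq2 size factors, thinning and leaving out each library. The test was tested on simulated data. Gene positions and exon lengths are from GENCODE release M21 (GRCm38), promoter sequences from RefSeq GRCm38.p6, alignments from BLAST 2.17.0 and Biopython 1.88. The members and gene lists were chosen with earlier results of these data known. The genes named are the 6 members, called genes of the lists, the most abundant gene of each list, Ccr1, Ccr3, Xcr1 and Ackr2, Pf4 and Ppbp, set markers (Mcpt8, Ms4a2, Fcer1a, Cpa3, Lyz2, S100a8), Fos, Jun, Egr1 and Ifng, and the 3 genes nearest in pattern to each member (mean log2 CPM of at least 2, no predicted loci or pseudogenes). Klrk1, Il3ra, Siglecf, Kit, Tpsab1, Epx, Prg2 and Ccl25 were named after their values were seen. So were Ccr4, Ccr9, Cxcr4, Cxcr6, Cxcr2 as a chemokine receptor, genes of the chromosome 11 stretch and the low-count ligands. A pair of genes that this rule also names is not reported here.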

Additional observations from a re-analysis of the deposited data

How the results depend on the processing

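No paired analysis was possible because the groups share no replicate numbers. The count of 60 called genes became 434 with DESeq2, 38 with limma-voom and 171 without the low-count filter, and 5 to 57 where 1 library was left out. The 2 called chemokine genes, Ccl6 and Ccl9, became 0 with limma-voom and 0 to 2 where 1 library was left out. The other chemokine ligands and receptors, with 0 called by edgeR and 6 at an unadjusted p under 0.05, had 4 called with DESeq2 and 4 without the filter, Ccr1, Ccr3, Cxcr2 and Pf4 in both. The cause of these differences was not tested, except that leaving out a library lowers the number of samples. The log2 folds of the 6 members moved by less than the spread between replicates under all 12 alternatives. Ccl5 and Xcl1, close to 0, changed sign among them. Depth does not limit the members, whose lowest count in any library was 2918 (Ccl9), but it limits chemokine genes with a few counts in all. Counting intervals cover counting error only.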

Other observations

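Several chemokine genes were seen almost only in WT libraries, at very low counts, and were picked here after their values were seen. Cxcl5, a neutrophil-attracting CXC chemokine, had 0, 1 and 0 counts in S303/7A 5, 6 and 7 and 13, 17 and 22 in WT 1, 2 and 3. With 1 count against 52, the ratio of WT over S303/7A per unit of depth was 36.1 (exact 95% counting interval 6.20 to 1454). Ccl24, an eosinophil-attracting chemokine, had 0 counts in S303/7A and 0, 15 and 12 in WT 1, 2 and 3. Per unit of depth, the WT counts were 6.25 times a floor of 3 counts over the S303/7A group. That ratio leaves out the counting error of the WT counts, and WT 1 was also at 0. Ccl17 had 1 count in S303/7A and 14 in WT, a WT over S303/7A ratio of 9.73 (interval 1.48 to 411).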
